A study of Homo sapiens with 18 samples.

Results

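The genes described here are VGF, PTPRN, SCG5, EDN1, BEX1, TENM2 and DNER, 7 genes of neurons, endocrine cells or vessels, out of 57120 symbols counted in total RNA libraries and 44267 counted in PLATE-seq libraries. They were picked by name with earlier results of these data known, and 6 of them were among the genes whose level differed between knockout clones. All 7 passed the filter on low counts in the total RNA data, and 6 did in PLATE-seq, where SCG5 had too few reads. All cells were of MDA-MB-436, a cell line from a triple-negative tumour of the breast. In all, 18 libraries in 8 groups were made. TruSeq stranded total RNA libraries covered a control and SMARCAL1 knockout clone 1, with 3 biological replicates each. PLATE-seq, a pooled plate assay of messenger RNA, had 6 groups of 2 biological replicates: a control, 3 clones with SMARCAL1 knocked out (clones 1, 2 and 3), cells given a control siRNA and cells given siRNA to SMARCAL1, called siRNA SMARCAL1 here. Each knockout group was a single clone, and the labels give neither how SMARCAL1 was disrupted nor what the controls received. Titles name MDA-MB-436 throughout, while in the 12 PLATE-seq samples the tag for the line changes from sample to sample; the titles were followed.

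Neuroendocrine cells keep peptide hormones in dense-core granules and release them on a stimulus. VGF is a secreted precursor of neuropeptides that is induced by nerve growth factor, PTPRN is a transmembrane protein of the granule related to tyrosine phosphatases, and SCG5 is a chaperone of the prohormone convertase PCSK2. EDN1 encodes the precursor of the vasoconstrictor peptide endothelin-1, best known from endothelial cells. BEX1 is a small protein of neurons that binds the neurotrophin receptor NGFR, TENM2 is a teneurin that joins neurons by binding latrophilins, and DNER is a neuronal transmembrane protein with EGF repeats that can bind Notch. SMARCAL1 is a helicase-like enzyme that rewinds DNA at stalled forks.

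The genes lie on 6 chromosomes (GENCODE 29, GRCh38). VGF is at chr7:101162509-101165593 on the minus strand, PTPRN at chr2:219289623-219309648 (minus), SCG5 at chr15:32641676-32697098 (plus) and EDN1 at chr6:12290363-12297194 (plus). BEX1 is at chrX:103062651-103064240 (minus), TENM2 at chr5:167284799-168264157 (plus) and DNER at chr2:229357629-229714558 (minus). Exons of PTPRN share 216 bases with AC114803.1 on the other strand, and those of SCG5 share 11 bases with AC123768.1. The strand setting of the counting is not given in the sources used here, so reads of such partners cannot be told apart. The other 5 genes share no exon bases with another gene.

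Parts of the sequence before a RefSeq start are shown with matches to short letter patterns, and any link of these to the levels was not tested. RefSeq (GRCh38.p14) gave 250 bases before at least 1 start for 6 of the 7 genes. Capitals mark the cyclic AMP response element (CRE, TGACGTCA), its shorter core TGACG or the reverse complement of that core, and the E-box CACGTG; both strands were searched, and each CRE also holds the core. The stretch of VGF lies from 250 to 25 bases before its start, at chr7:101165594-101165819 (minus). The others are windows of 30 bases around a match, at chrX:103064208-103064237 (minus) for BEX1, chr2:219309516-219309545 (minus) for an alternative start of PTPRN, chr15:32641680-32641709 (plus) for SCG5 and chr6:12289860-12289889 (plus) for an alternative start of EDN1. RefSeq and GENCODE place some starts differently: the windows of BEX1, PTPRN and SCG5 lie before a RefSeq start but wholly inside the GENCODE gene given above, and those of VGF and EDN1 lie outside it.
VGF: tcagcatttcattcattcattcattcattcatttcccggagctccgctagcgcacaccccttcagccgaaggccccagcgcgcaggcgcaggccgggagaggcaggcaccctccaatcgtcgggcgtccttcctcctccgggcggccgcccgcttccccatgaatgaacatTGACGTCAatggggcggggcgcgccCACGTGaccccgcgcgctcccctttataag
BEX1: ggcggTGACGcacggccctCACGTGaccgg
PTPRN: ttacgccatatgTGACGcaaattagcttac
SCG5: atgcggaggagggTGACGcactagctctcc
EDN1: gtagtggggcagTGACGagggagagcattc

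The complete CRE was found in VGF alone of the 6 genes, 79 to 72 bases before its start, and 2.03% of 27305 genes hold it in such a stretch. The E-box was found in VGF (54 to 49 bases before the RefSeq start) and BEX1 (47 to 42, inside the GENCODE gene), and 7.73% of genes hold it. The TGACG core was found before a start of 5 of the 6 genes, all but TENM2, against 24.9% of all genes. The AP-1 letters TGANTCA were found in 0 of the 6, and 8.06% of genes hold them. These matches describe letters and do not show that a factor binds.

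The libraries were deeper in total RNA, at 10257584 to 19270648 counts, than in PLATE-seq, at 807861 to 3068887. The clone 3 libraries were the deepest of PLATE-seq and the control libraries the shallowest. Levels are in CPM, counts scaled to library size with TMM factors, given as mean ± SD over libraries. A gene with no counts could lie anywhere under 3 counts, which is 0.911 to 3.72 CPM in PLATE-seq libraries and 0.165 to 0.278 CPM in TruSeq libraries. SMARCAL1 held 163, 174 and 292 counts in the TruSeq controls and 144, 254 and 211 in clone 1. In PLATE-seq it held 0 and 3 counts in the control, 3 and 6 in clone 1, 8 and 3 in clone 2, 16 and 44 in clone 3, 7 and 8 in the siRNA control and 0 and 0 in siRNA SMARCAL1. A disrupted gene can keep its transcript, so these counts do not test the knockout.

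Markers listed for a mesenchymal basal-like line stood at unequal levels, as did luminal and neuroendocrine markers. In TruSeq controls vimentin (VIM) stood at 1240 CPM and CD44 at 424 CPM, while the estrogen receptor gene ESR1 was at 0.512 CPM. From the same lists, the keratins KRT8 and KRT18 were at 740 and 718 CPM, KRT17 at 13 CPM and the luminal marker ERBB2 at 41.2 CPM. The neuroendocrine factors NEUROD1 and INSM1 were at 0.186 and 0.082 CPM in the TruSeq control. ISL1, from the same list, was higher, at 7.44 CPM in the TruSeq control and 9.35 CPM in clone 1. The granin CHGA was at 0.638 CPM in the TruSeq control, CHGB at 2.42 and the convertase PCSK2 at 0.361. Other markers from the same lists were present. UCHL1 stood at 502 CPM, the enolase ENO2 at 151 and NCAM1 at 12.3 in the TruSeq control, and the 21 neuroendocrine markers summed to 646 to 747 CPM there and 718 to 830 CPM in clone 1. In PLATE-seq the sum of these 21 was 564 to 582 CPM in the control. It was 813 to 964, 779 to 1100 and 761 to 1060 CPM in clones 1, 2 and 3. The siRNA control, at 883 to 906 CPM, and siRNA SMARCAL1, at 843 to 917 CPM, were above the control as well. The 32 granule genes summed to 682 to 709 CPM in the TruSeq control and 693 to 729 CPM in TruSeq clone 1, led by RAB3B and CPD. Markers of the lists thus differed widely in level, and no neuroendocrine state is read from them. Of 8 markers of the line tested, KRT17 (1.78), CAV1 (0.46) and EGFR (0.37) rose in clone 1 with edgeR adjusted p of 0.000177, 0.00643 and 0.0197; CAV1 lost its call without control replicate 2, and EGFR without control replicate 1 or 2 or knockout replicate 2 or 3. Endothelial markers, looked at because vessels make EDN1, summed to 3.54 to 13.2 CPM over all 10 in TruSeq and to at most 6.54 CPM in PLATE-seq, where VWF, CDH5, TIE1 and TEK had 0 counts. The 10 leukocyte markers summed to 33.2 to 38.3 CPM in the TruSeq control and to 24.1 to 28.9 CPM in clone 1, so this sum was lower in the group with lower VGF and BEX1, and its part in those values was not tested. It was led by CD68 (16.9 CPM in the control and 15.2 in clone 1) and CD14 (14.1 and 7.85), while PTPRC stood at 1.22 and 1.19 CPM. In PLATE-seq the sum of the 10 was at most 12.4 CPM, with 6 of the 10, PTPRC among them, at 0 counts.

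Levels between genes were compared per kilobase of merged exons in TruSeq. In the control BEX1 stood first at 63.7 ± 0.241 CPM per kb (SD, n = 3), followed by VGF at 34.9 ± 9.48, DNER at 10.2 ± 0.927, SCG5 at 6.63 ± 0.605 and PTPRN at 4.1 ± 0.202. TENM2 at 1.73 ± 0.131 and EDN1 at 1.36 ± 0.201 came last. The ranges of libraries did not overlap between any neighbours in this order. In clone 1 the first 4 places were the same, EDN1 came next at 3.59 ± 0.45 CPM per kb, overlapping PTPRN at 3.23 ± 0.501. VGF at 16.1 ± 3.65 and DNER at 14.9 ± 1.41 overlapped as well.

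The TruSeq comparison asks what differs between knockout clone 1 and the control. VGF and BEX1 were lower in clone 1 and EDN1 and DNER higher, while the SCG5 levels of the groups overlapped. In bulk RNA, fewer cells with a transcript and less of it per cell cannot be told apart. The genes were chosen with results of this comparison known, so its values are described with no test.

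VGF, the neuropeptide precursor, stood at 78.5, 80.8 and 124 CPM in the control and 32.4, 50.9 and 47.6 CPM in clone 1, a log2 change of -1.11 (SE 0.21). The groups did not overlap, although control replicate 3 was well above the rest of its group. PTPRN, the granule membrane protein, was at 32.5, 33.3 and 35.7 CPM in the control and 21.9, 28.8 and 29.3 CPM in clone 1 (-0.34, SE 0.12). Each clone 1 library was below each control library, by a small margin. SCG5, the convertase chaperone, was at 16.1, 13.8 and 13.8 CPM against 13, 14.1 and 13.8 CPM (-0.09, SE 0.11), and the groups overlapped. EDN1, the endothelin precursor, was low at 2.3, 3.07 and 2.92 CPM in the control and higher at 6.86, 6.67 and 8.34 CPM in clone 1 (1.39, SE 0.18).

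BEX1 was the steadiest of the genes in the control, at 55.2, 55.1 and 54.8 CPM, and stood at 19.6, 20.1 and 25.6 CPM in clone 1 (-1.33, SE 0.11). Its groups lay far apart. TENM2, the teneurin, was at 17.9, 20.7 and 18.7 CPM in the control and 15.2, 15.9 and 17.3 CPM in clone 1 (-0.24, SE 0.10), with the groups separated only narrowly. DNER was at 38.5, 37.9 and 44.5 CPM in the control and 53.5, 64.5 and 57.5 CPM in clone 1 (0.54, SE 0.10), every clone 1 library being higher.

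**Figure D1:**
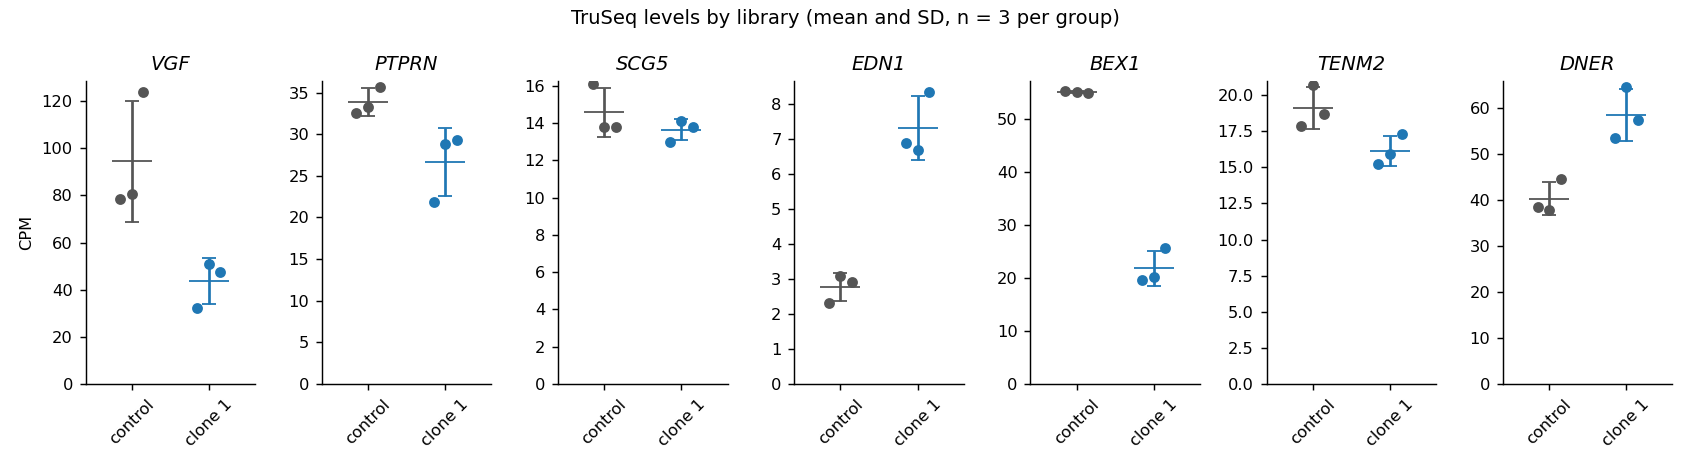
TruSeq levels of the 7 genes in CPM (vertical axis, linear, a scale for each gene) in control and knockout clone 1 libraries; points are libraries and bars the mean and SD of 3. BEX1 and VGF sit lower in clone 1, EDN1 and DNER higher, and the SCG5 libraries of the 2 groups overlap.

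The groups did not overlap for 6 of the 7 genes, where 26.3% of 17371 genes tested had groups that did not overlap. VGF, BEX1, EDN1 and DNER were among the 1089 genes past an edgeR adjusted p of 0.05, which is 6.27% of those tested. That count was 518 without control replicate 1, 199 without control replicate 2, 369 without knockout replicate 2 and 309 without knockout replicate 3. The genes were chosen with these values in view, so nothing is read from either count. TruSeq libraries also split by how many symbols had a read: control replicates 1 and 2 and the first knockout replicate had 36042 to 39068, and the remaining 3 libraries 28621 to 30653. Within the side with many symbols the log2 changes were -1.31 for VGF, -1.50 for BEX1, 1.34 for EDN1, 0.48 for DNER, -0.60 for PTPRN, -0.36 for TENM2 and -0.21 for SCG5. Within the side with few they were -1.33, -1.27, 1.35, 0.46, -0.30, -0.17 and 0.02. Of the 7 genes SCG5 alone had opposite signs on the 2 sides. Knockout replicate 1 was the only knockout library on the side with many, and control replicate 3 the only control on the side with few. Each of these changes thus rests on 1 library of a group, and the genes were chosen with the TruSeq values in view.

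In PLATE-seq clone 3 departed from clones 1 and 2, which were more alike in these genes. Clones 1 and 2 had low VGF and BEX1 and high EDN1, whereas clone 3 had VGF and BEX1 near the control, EDN1 and TENM2 almost at 0 and little DNER. The genes were chosen on such differences, so these values too are given with no test.

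VGF held 158 and 86.8 CPM in the control, 30.3 and 27.3 in clone 1, 34.3 and 30.7 in clone 2 and 158 and 220 in clone 3. The control pair was itself spread widely, clones 1 and 2 lay below it and clone 3 overlapped it. The log2 changes were -2.09 (SE 0.40), -1.91 (SE 0.41) and 0.62 (SE 0.37) for clones 1, 2 and 3. The fitted level in clone 3 was 6.55 times that in clone 1 and 5.80 times that in clone 2.

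BEX1 too was lower in clones 1 and 2 than in clone 3, over a smaller range. It held 136 and 205 CPM in the control, 63 and 53 in clone 1, 48.9 and 25.6 in clone 2 and 144 and 127 in clone 3. Clones 1 and 2 were below the control without overlap (-1.55, SE 0.34, and -2.19, SE 0.36), and clone 3 overlapped it (-0.33, SE 0.32). In clone 1, the clone measured by both assays, the change in VGF was -1.11 in TruSeq and -2.09 in PLATE-seq, and that in BEX1 was -1.33 and -1.55.

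EDN1 held 23 and 8 counts in the control, 86 and 87 in clone 1, 38 and 42 in clone 2 and 0 and 7 in clone 3. These counts are 25.4 and 9.92 CPM, 51.1 and 47.5, 39.5 and 43, and 0 and 2.13 CPM. Clones 1 and 2 lay above the control and clone 3 below it, although clone 3 had the deepest libraries. The changes were 1.46 (SE 0.62), 1.21 (SE 0.63) and -3.80 (SE 0.78). The ratio of counts to library totals in clone 3 was 0.07 of the control; its exact binomial 95% interval ran from 0.026 to 0.162. All 7 counts came from clone 3 replicate 2, and without it the fitted change was -7.56.

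TENM2 held 18 and 22 counts in the control, 23 and 54 in clone 1, 14 and 11 in clone 2, and 0 and 2 in clone 3. Clone 1 overlapped the control (13.7 and 29.5 CPM against 19.9 and 27.3), clone 2 was below it (14.6 and 11.3 CPM), and clone 3 was almost at 0. The changes of clones 1 and 2 were -0.12 (SE 0.62) and -0.86 (SE 0.66). For clone 3 the ratio of counts to library totals was 0.0155 of the control (0.00181 to 0.0597) and 0.0168 of clone 1 (0.002 to 0.0629). The fitted change, which depends on how low counts are treated, was -5.76 (SE 0.89), and -7.95 without clone 3 replicate 2.

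DNER was level in 3 groups, at 38.7 and 39.7 CPM in the control, 40.4 and 32.8 in clone 1 and 41.6 and 38.9 in clone 2. Clone 3 was lower, at 10.2 and 8.81 CPM (-2.04, SE 0.47), without overlap. The higher DNER of clone 1 in TruSeq (0.54) thus stands beside a change of -0.10 (SE 0.44) in PLATE-seq.

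PTPRN held 22.1 and 31 CPM in the control, 68.9 and 47 in clone 1, 75.9 and 108 in clone 2 and 14.7 and 20 in clone 3. Clones 1 and 2 lay above the control (1.13, SE 0.39, and 1.79, SE 0.39) and clone 3 below it (-0.60, SE 0.40). For clone 1 this is the opposite of the TruSeq direction (-0.34, SE 0.12); the assays differ in RNA selection and depth, and the difference between them was not tested. SCG5, which was not tested in PLATE-seq, held 7 and 4 counts in the control, 9 and 11 in clone 1, 5 and 6 in clone 2 and 3 and 22 in clone 3. All of its groups overlapped.

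**Figure D2:**
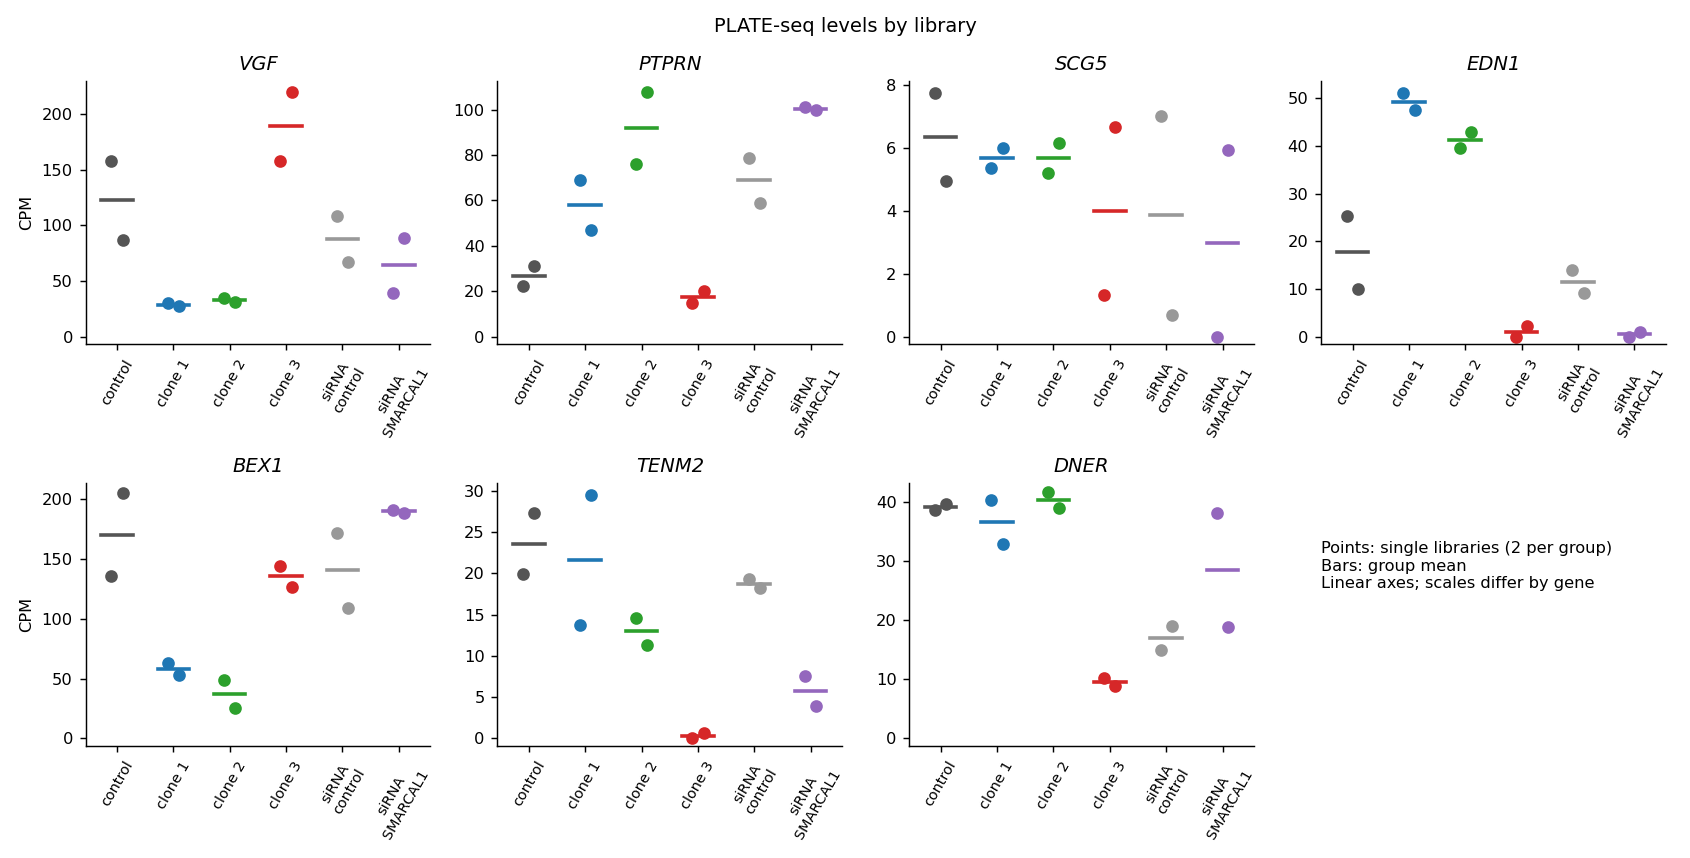
PLATE-seq levels of the 7 genes in CPM (vertical axis, linear, a scale for each gene) in 6 groups of 2 libraries; points are libraries and bars group means. Clone 3 stands apart from clones 1 and 2 with VGF up to 220 CPM and with EDN1, TENM2, DNER and PTPRN lowest of the 3 clones.

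The mean over the clones joined values of opposite sign for VGF, PTPRN and EDN1 and of unequal size for BEX1 and TENM2. For DNER it joined -0.10, 0.04 and -2.04. The mean change over the 3 clones was -1.13 (SE 0.30) for VGF, -1.36 (SE 0.26) for BEX1 and -0.38 (SE 0.52) for EDN1, and over clones 1 and 2 alone it was -2.0, -1.87 and 1.33. The mean of EDN1 was 0.47 without control replicate 1, -0.88 without control replicate 2, -0.11 without clone 3 replicate 1 and -1.63 without clone 3 replicate 2, and that of VGF was -0.62 without control replicate 1. For PTPRN the mean was 0.77 (SE 0.34), for TENM2 -2.25 (SE 0.55) and for DNER -0.70 (SE 0.36), and over clones 1 and 2 the values were 1.46, -0.49 and -0.03. A mean over these clones takes its error from the spread between libraries and does not show that each clone changed.

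All 6 genes that passed the filter were among 61 genes, 0.71% of 8595, past an edgeR adjusted p of 0.05 for differences among the clones. Single clones against the control gave fewer. BEX1 was among the 17 genes called for the clone mean (0.198%) and the 3 called in clone 2 (0.0349%), and TENM2, DNER and EDN1 were among the 57 called in clone 3 (0.663%). In clone 1 edgeR called 0 genes, with 704 at an unadjusted p under 0.05 and 16 by DESeq2. Libraries did not overlap with the control for 4 of the 6 genes in clone 1, 5 in clone 2 and 4 in clone 3, where 39.2%, 38.3% and 42% of all genes tested did not. The count among clones was 141 without clone 3 replicate 1 and 17 without clone 3 replicate 2, and that of clone 3 was 131 and 13, with 7 and 27 without control replicates 1 and 2. The genes were chosen on this pattern, and these counts describe that choice. Clones 1 and 2 lay closer to each other than either did to clone 3, with differences of 0.18 (SE 0.42) for VGF, -0.64 (SE 0.36) for BEX1, 0.66 (SE 0.35) for PTPRN, -0.74 (SE 0.64) for TENM2, 0.14 (SE 0.44) for DNER and -0.26 (SE 0.58) for EDN1. Their libraries overlapped for TENM2 and DNER but not for VGF, BEX1, PTPRN and EDN1, and the share of all genes without overlap was not taken for this pair. Between clones 1 and 2, 0 of 8595 genes passed in edgeR, with 438 at an unadjusted p under 0.05, against 40 between clones 3 and 1 and 65 between clones 3 and 2. Clone 3 replicate 2 had 21% of its counts on mitochondrial messenger RNAs and replicate 1 had 28.8%, against 24.2% to 28.5% in clones 1 and 2; the part of depth and of this share in the clone differences was not tested.

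The siRNA comparison sets depletion of SMARCAL1 against an siRNA control in 2 libraries each. The choice of genes rested on changes against the matching control, which may include this one, so its values too are described with no test. In it 0 of 8595 genes passed an adjusted p of 0.05 (0%), with 544 at an unadjusted p under 0.05 and 2 by DESeq2.

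EDN1 had the widest gap. It held 16 and 13 counts in the siRNA control (14 and 9.12 CPM) and 0 and 1 with siRNA SMARCAL1 (0 and 0.989 CPM). The groups did not overlap, which in this comparison held for 37.4% of all genes tested. The ratio of counts to library totals was 0.0335, with a counting interval of 0.00082 to 0.202. EDN1 was among the 22 of 17193 genes called with no filter on low counts. It was not called in the main fit or in the other 7 of 8 alternative settings, so nothing is read from that call.

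TENM2 was at 19.3 and 18.2 CPM in the siRNA control and 7.49 and 3.95 CPM with siRNA SMARCAL1, a change of -1.66 (SE 0.69). Its groups did not overlap. VGF was at 108 and 66.7 CPM against 39.5 and 89 CPM (-0.46, SE 0.39), and its groups overlapped. The change in VGF was 0.03 without siRNA SMARCAL1 replicate 1 and -1.14 without replicate 2.

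BEX1 stood at 172 and 109 CPM in the siRNA control and 191 and 189 CPM with siRNA SMARCAL1 (0.44, SE 0.32). PTPRN was at 78.9 and 59 CPM against 101 and 99.8 CPM (0.55, SE 0.35). In both genes each depleted library was above each siRNA control library. DNER was at 14.9 and 19 CPM against 38.1 and 18.8 CPM (0.76, SE 0.47) with overlap, and SCG5 held 8 and 1 counts against 0 and 6.

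The direction differed between knockout and siRNA for some genes and clones. BEX1 was lower in clones 1 and 2 and slightly higher with siRNA, and EDN1 was higher in clones 1 and 2 and lower with siRNA. Clone 3 lay on the side of siRNA for EDN1 (-3.80 against -4.55), where both groups held almost no counts, and for TENM2 (-5.76 against -1.66). By sign it lay on the other side for BEX1 (-0.33 against 0.44), PTPRN, DNER and VGF. Some of these signs are not firm. BEX1 in clone 3 had an SE of 0.32, overlapped the control and was 0 without control replicate 2. The siRNA change of VGF was -0.46 (SE 0.39), with overlap, and reached 0.03 when 1 library was left out. The mean clone effect minus the siRNA effect was -1.80 (SE 0.42) for BEX1, 4.17 (SE 1.3) for EDN1, -1.46 (SE 0.59) for DNER, -0.67 (SE 0.50) for VGF, -0.59 (SE 0.81) for TENM2 and 0.22 (SE 0.48) for PTPRN. Without siRNA SMARCAL1 replicate 1 or 2 it was 3.06 or 6.76 for EDN1, -0.84 or -1.85 for DNER and -1.15 or 0.02 for VGF. In that contrast 0 of 8595 genes passed in edgeR (0%), with 667 at an unadjusted p under 0.05 and 19 by DESeq2.

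**Figure D3:**
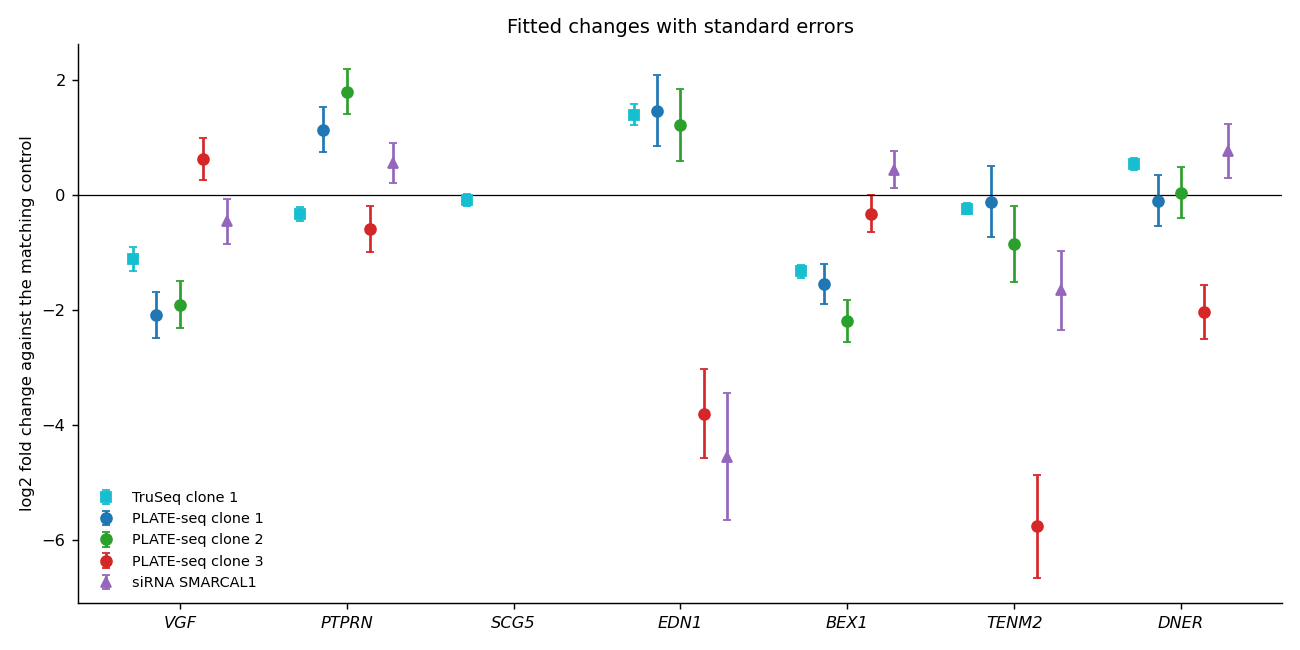
Fitted log2 fold changes (vertical axis) of the 7 genes against the matching control in TruSeq clone 1, PLATE-seq clones 1, 2 and 3 and siRNA SMARCAL1; bars are standard errors, and SCG5 has a TruSeq value only. VGF and BEX1 share low values in clone 1 (both assays) and clone 2, and EDN1 and TENM2 reach -3.80 and -5.76 in clone 3.

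The libraries of the 2 control groups of PLATE-seq did not overlap for PTPRN, DNER and TENM2. The share of all genes without overlap was not taken for this pair. In the comparisons of clones and siRNA with their controls it was 37.4% to 42%. PTPRN was 2.59 times as high in the siRNA control as in the control, and its libraries did not overlap. DNER was lower in the siRNA control by a log2 change of -1.20 (SE 0.47), also without overlap. VGF, BEX1 and EDN1 overlapped between the control groups (-0.50, -0.28 and -0.63), and TENM2 was just lower in the siRNA control (-0.33, SE 0.64). Of all 8595 genes 1 passed in edgeR between the control groups, with 669 at an unadjusted p under 0.05.

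Set against the siRNA control, a choice made after the data were seen, clones 1 and 2 kept low VGF (-1.59 and -1.42) and BEX1 (-1.27 and -1.91) and high EDN1 (2.09 and 1.84). Clone 3 kept low EDN1 (-3.17) and TENM2 (-5.43). PTPRN did not keep its values: it was at -0.25, 0.42 and -1.97 in clones 1, 2 and 3, and its mean over the clones turned from 0.77 to -0.60. DNER was at 1.10, 1.24 and -0.84, and its mean turned from -0.70 to 0.50. The sign of PTPRN and DNER in clone 1 and in the mean over the clones thus turned with the control used, while in clones 2 and 3 it did not.

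**Figure D4:**
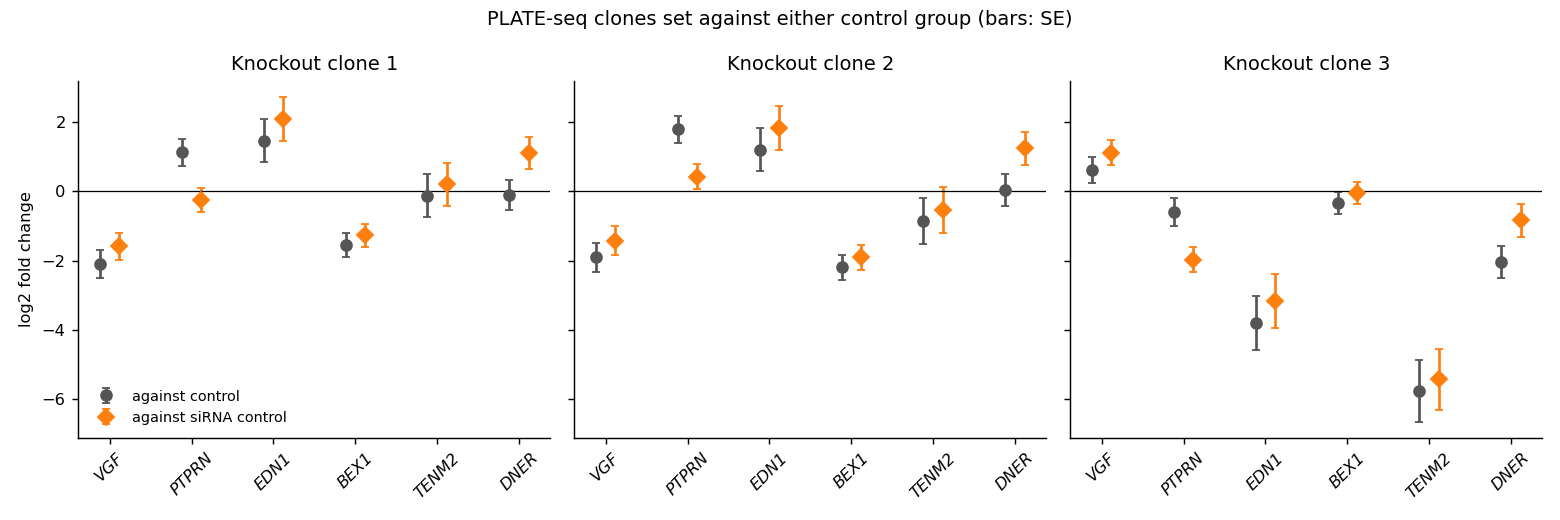
Log2 fold changes (vertical axis) of the 6 genes tested in PLATE-seq for each knockout clone against the control (circles) and against the siRNA control (diamonds); bars are standard errors. VGF, BEX1 and EDN1 keep their places in clones 1 and 2, while PTPRN and DNER shift by over a log2 unit.

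Ordered by mean level in PLATE-seq, VGF ran from clone 3 (189 CPM) through the control (122), siRNA control (87.3), siRNA SMARCAL1 (64.2) and clone 2 (32.5) to clone 1 (28.8), and neighbours overlapped down to siRNA SMARCAL1. BEX1 ran from siRNA SMARCAL1 (190) through the control (170), siRNA control (140) and clone 3 (135), all overlapping their neighbours, to clone 1 (58) and clone 2 (37.2), which stood apart. EDN1 ran from clone 1 (49.3) and clone 2 (41.3) through the control (17.7) and siRNA control (11.6), which overlapped, to clone 3 (1.06) and siRNA SMARCAL1 (0.494), which overlapped as well. PTPRN was highest with siRNA SMARCAL1 (101) and overlapped from neighbour to neighbour through clone 2 (91.7), the siRNA control (68.9) and clone 1 (57.9), with the control (26.6) and clone 3 (17.4) apart. DNER overlapped in the same way from clone 2 (40.3) through the control, clone 1 and siRNA SMARCAL1 to the siRNA control (16.9), with clone 3 (9.51) apart. TENM2 ran from the control (23.6) through clone 1 (21.6), the siRNA control (18.8), clone 2 (12.9) and siRNA SMARCAL1 (5.72) to clone 3 (0.304). The wide range of clone 1 overlapped the control, the siRNA control and clone 2, and the other neighbours in that order did not overlap.

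Genes around these pathways were tested from lists chosen by function, but with earlier results of these data known. Their counts and p-values thus describe these lists and are not independent support. Of all genes tested in TruSeq 3.96% rose and 2.31% fell. Of 27 other granule genes tested in TruSeq, 3 rose and 0 fell, with a median log2 change of 0.12 where all genes had a median of 0. They were SCG2, a granin (1.58, SE 0.32, edgeR adjusted p = 0.0254), ICA1, an islet autoantigen (0.71, SE 0.12, edgeR adjusted p = 0.0117), and PAM, which amidates peptides (0.50, SE 0.07, edgeR adjusted p = 0.00727). Of 24 Notch genes 4 rose and 0 fell (median 0.23): the ligands DLL1 (1.38, SE 0.25) and JAG1 (0.82, SE 0.17) and the sheddases ADAM10 (0.40) and ADAM17 (0.36), with edgeR adjusted p from 0.0146 to 0.0242.

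Among 5 teneurins, latrophilins and FLRT genes TENM3 rose (0.67, SE 0.09, edgeR adjusted p = 0.0049). Of 9 neuroendocrine markers the adhesion molecule NCAM1 rose (0.57, SE 0.09, edgeR adjusted p = 0.0109). Of 7 neuronal genes MAP2 and L1CAM rose (1.83 and 0.55) and the neurofilament NEFL fell (-0.60, SE 0.07, edgeR adjusted p = 0.00207). Of 7 genes of the endothelin pathway the convertase PCSK6 rose (0.63, SE 0.10, edgeR adjusted p = 0.00925), while the receptors EDNRA and EDNRB stood under 1 CPM on average in both groups. Of these 13 genes NEFL alone kept its call when any single library was left out. Without control replicate 2, 11 of the 13 lost their call, all but ICA1 and NEFL, and 10 did without knockout replicate 3, 7 without knockout replicate 2, 3 without control replicate 1 and 2 without control replicate 3. In PLATE-seq NEFL went the other way in clone 1, at 12.5 and 18 CPM against 8.85 and 1.24 CPM (8 and 1 counts) in the control. Clone 2 overlapped the control at 9.36 and 7.17 CPM, and clone 3 lay above it at 23.1 and 15.8 CPM. Among the rest of the 13, SCG2 (1 and 20 counts against 0 and 0), ICA1 and L1CAM lay above the control in PLATE-seq clone 1. The others overlapped it, NCAM1 among them (22.6 and 21.3 against 27.6 and 21.1 CPM), or had 0 counts in both groups (DLL1). In that comparison 39.2% of all genes tested did not overlap. The difference between the assays was not tested.

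Other lists around BEX1 and VGF gave no call in edgeR or in DESeq2. Of 19 BEX, TCEAL and ARMCX genes from the same part of the X chromosome 0 passed in TruSeq (median -0.11) and 0 had an unadjusted p under 0.05, and the close relative BEX3 was at 104 ± 2.57 CPM in the control and 95 ± 9.84 CPM in clone 1. Of 16 genes of neurotrophins, their receptors and CREB factors 0 passed, and of 14 genes of the neuronal repressor REST and its corepressors 0 passed, each list having 1 gene at an unadjusted p under 0.05. REST itself was at 134 CPM in both TruSeq groups (-0.01, SE 0.07, edgeR adjusted p = 0.968). In PLATE-seq it was at -0.87, -0.51 and -0.74 in clones 1, 2 and 3 and at -0.91 with siRNA SMARCAL1, with edgeR adjusted p from 0.475 to 0.74. Across all PLATE-seq contrasts 1 gene of these lists passed, the Notch effector RBPJ, which fell in clone 3 (-1.31, SE 0.30, edgeR adjusted p = 0.0429; 57 genes or 0.663% passed there) and lost its call without either control library or without clone 3 replicate 2.

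The genes whose level followed VGF most closely over the 6 TruSeq libraries were KARS, PPIF and GPT2 (Pearson r 0.997, 0.994 and 0.992 on log2 CPM). Those nearest to PTPRN were AK4, PGM1 and AL162411.1 (0.993, 0.991 and 0.991), and those nearest to BEX1 were COQ9, METTL23 and BST2 (0.999, 0.999 and 0.996). Over the 12 PLATE-seq libraries DRAM1, ALDH6A1 and EEF1A1 were nearest to BEX1 (0.945, 0.917 and 0.902). With 6 libraries in 2 groups that also split by symbols detected, such values are the highest of all genes tested and describe these libraries only.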

How the data were processed

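The authors deposited whole-number counts for each symbol; STAR, HTSeq and hg38 are named in the submitters' processing notes, and versions, annotation and strand setting are not given in the sources used here. The 92 spike-in entries of PLATE-seq (at most 0.0534% of a library) were left out, and 14 and 28 symbols turned into dates were kept as written. Each assay was fitted separately with edgeR 4.0.16 in R 4.3.3: filterByExpr (17371 and 8595 genes), TMM, group as the only term, quasi-likelihood F test, two-sided, Benjamini-Hochberg over all genes, threshold 0.05. Residual degrees of freedom were 4 and 6, and the biological coefficient of variation 0.123 and 0.33. Standard errors are the log2 change over the square root of F. DESeq2 1.42.0 served as an alternative. The fit was tested on simulated data. Replicates are those the labels call biological; where they share a culture, p-values measure technical spread. Libraries of 1 group differed beyond counting noise (chi-square per degree of freedom 6.3 to 39.5). Counting intervals and floors cover counting error only. The genes and lists were chosen with earlier results of these data known; from each list of pathway, granule and neural genes those past the threshold were named, at most 4 per list and contrast, with REST and the 3 genes most like VGF, PTPRN and BEX1. Overlaps of exons come from GENCODE 29 and promoters from RefSeq.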

Additional observations from a re-analysis of the deposited data

Results flagged for a closer look

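Of the 7 genes, 6 differed among the 3 PLATE-seq knockout clones by the test of that difference, the pattern on which they were chosen, so no p is given. The log2 range between the lowest and the highest clone was 2.71 for VGF, 2.39 for PTPRN, 1.86 for BEX1, 5.64 for TENM2, 2.08 for DNER and 5.26 for EDN1, where the median range over all genes tested was 0.72. Clone 3 was the highest clone for VGF and BEX1 and the lowest for the other 4. The ranges of TENM2 and EDN1 rest on 2 and 7 counts in clone 3, so their size depends on how the fit treats low counts.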

How the results depend on the processing

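The log2 changes of VGF, BEX1, DNER and EDN1 in TruSeq kept their sign under all 12 alternatives, at -1.33 to -0.85, -1.50 to -1.26, 0.46 to 0.62 and 1.28 to 1.46. In PLATE-seq, BEX1 and VGF in clones 1 and 2, EDN1 in each clone and TENM2 and DNER in clone 3 kept theirs under all 9. The siRNA change of VGF ran from -1.14 to 0.03 when 1 library was left out. Counts of called genes moved more. With no filter on low counts they were 83 for the clone mean, 36, 61 and 156 for clones 1, 2 and 3, 230 among clones, 22 for siRNA and 44 for the clone mean minus siRNA effect. With DESeq2 they were 43, 16, 31, 111, 167, 2 and 19 in that order. With the siRNA control as reference, chosen after seeing the data, clones 1, 2 and 3 had 7, 13 and 24. Leaving out single libraries gave 199 to 1145 in TruSeq, 5 to 52 for the clone mean, 0 to 3, 3 to 12 and 7 to 131 for clones 1, 2 and 3, 17 to 141 among clones, 0 to 2 for siRNA and 0 to 15 for the clone mean minus siRNA effect. The TruSeq libraries with few symbols gave 2517. The causes were not tested. With the replicate number as a block the TruSeq count was 2387 and that of the clone mean minus siRNA effect 2. Same-numbered TruSeq libraries correlated at 0.58, -0.27 and 0.38 in their deviations and PLATE-seq libraries at -0.06 to 0.06, so the numbers were not taken to pair libraries. At 2 libraries a group and 807861 to 3068887 counts, PLATE-seq limits what can be said of TENM2, EDN1 and SCG5.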
